A study of Mus musculus with 12 samples.

Results

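The genes described here are 50 genes of liver fibrosis: collagens and other matrix proteins, the enzymes that crosslink and cut them, genes of hepatic stellate cells and myofibroblasts, and the signals TGF-beta 1 and Ctgf. They were taken as a list of gene symbols and matched to Ensembl gene identifiers through the GENCODE annotation of the mouse build GRCm38. All 50 had values, out of 22381 identifiers with values. Of these, 49 passed the filter on low values and were tested among 12637 genes, and the lysyl oxidase gene Lox was not tested.

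RNA of whole liver from C57BL/6 mice was sequenced in 12 libraries, 3 in each of 4 groups. The HFHS_Curcumin and HFHS_Calcitriol groups were on a diet high in fat and sugar for 14 weeks and received liposomes carrying curcumin or calcitriol, the active form of vitamin D, at weeks 12 and 13. The HFHS group had the diet and, by its title, neither treatment. The group titled CNT is the only one without the diet in its title, although its labels carry the same text on a 14-week diet. What the CNT mice ate is therefore not settled by the labels, and a group given empty liposomes was not analysed here. Age and sex are not given. Whether libraries of 1 group came from different mice is not stated either, and p-values here measure the spread between libraries. The values are the log2 values the authors deposited. The number of reads behind each value is unknown.

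In a healthy liver the stellate cell lies between hepatocytes and the sinusoidal endothelium and stores retinol esters, which the enzyme Lrat makes. After injury stellate cells and portal fibroblasts can become myofibroblasts, which contain smooth muscle actin (Acta2) and lay down fibrillar collagens, elastic fibres and the proteoglycans that bind them. TGF-beta and PDGF are the best known signals of that change. Lysyl oxidases crosslink collagen and elastin, metalloproteinases cut matrix, and Timp proteins inhibit the metalloproteinases. Basement membranes, in contrast, are sheets of collagen IV, laminin and nidogen, and hepatocytes themselves make the plasma form of fibronectin (Fn1) and much of the liver's collagen XVIII (Col18a1).

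Promoters are shown for 3 genes of the matrix set, the fibrillar collagen genes Col1a2 and Col3a1 and the thrombospondin gene Thbs2, because these genes were high in the same libraries while their promoters differ in letters. RefSeq windows (GRCm38.p6) were matched by symbol for 33 of the 50 genes, and the 250 bases before the start site were read. Col1a2 lies on the plus strand of chromosome 6, and its window is chr6:4505368-4505617. The Col3a1 window, also on the plus strand, is chr1:45311288-45311537. The Thbs2 window is chr17:14694263-14694512 on the minus strand. Each is written 5′ to 3′, and capitals mark a CCAAT box, a GC box (GGGCGG) or a TATA box (TATAAA) on either strand.
Col1a2: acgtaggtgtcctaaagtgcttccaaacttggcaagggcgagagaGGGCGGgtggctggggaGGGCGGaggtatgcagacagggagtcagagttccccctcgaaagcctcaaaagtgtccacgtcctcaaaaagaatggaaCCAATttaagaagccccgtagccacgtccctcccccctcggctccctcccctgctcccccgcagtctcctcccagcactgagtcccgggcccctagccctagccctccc
Col3a1: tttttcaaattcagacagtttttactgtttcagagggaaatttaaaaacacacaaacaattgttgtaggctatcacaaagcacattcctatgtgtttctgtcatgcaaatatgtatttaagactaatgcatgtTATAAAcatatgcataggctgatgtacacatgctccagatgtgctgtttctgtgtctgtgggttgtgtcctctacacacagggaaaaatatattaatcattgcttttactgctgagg
Thbs2: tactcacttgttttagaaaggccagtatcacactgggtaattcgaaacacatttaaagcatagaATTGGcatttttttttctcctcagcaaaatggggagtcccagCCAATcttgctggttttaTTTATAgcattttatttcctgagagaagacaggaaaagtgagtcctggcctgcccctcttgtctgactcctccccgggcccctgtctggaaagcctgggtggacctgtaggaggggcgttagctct

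The Col1a2 window holds 1 CCAAT box and 2 GC boxes, the Col3a1 window holds 1 TATA box, and the Thbs2 window holds 2 CCAAT boxes and 1 TATA box. No match to the AP-1 letters TGANTCA or to the CArG box was found in these 3 windows. Among the 33 matched genes a CCAAT box was found in 13 windows (39.4%), against 33.8% of all 32817 RefSeq windows. GC boxes were found in 20 of the 33 (60.6%), against 32.7% of all windows. TATA boxes were found in 4 (12.1%, against 12.4%), an AP-1 match in 1 (3.03%, against 6.75%) and a CArG box in 1 (3.03%, against 1.47%). Each matched gene gave 1 window, the one nearest its annotated 5′ end, whereas the 32817 windows include more than 1 for some genes. Shares of genes are thus set beside shares of windows. All motifs were searched on both strands, matches of different motifs were allowed to overlap, and a match describes letters only. Col4a1 and Col4a2, the collagen IV genes, are a head-to-head pair on chromosome 8, with annotated start sites 21 bases apart.

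**Figure D1:**
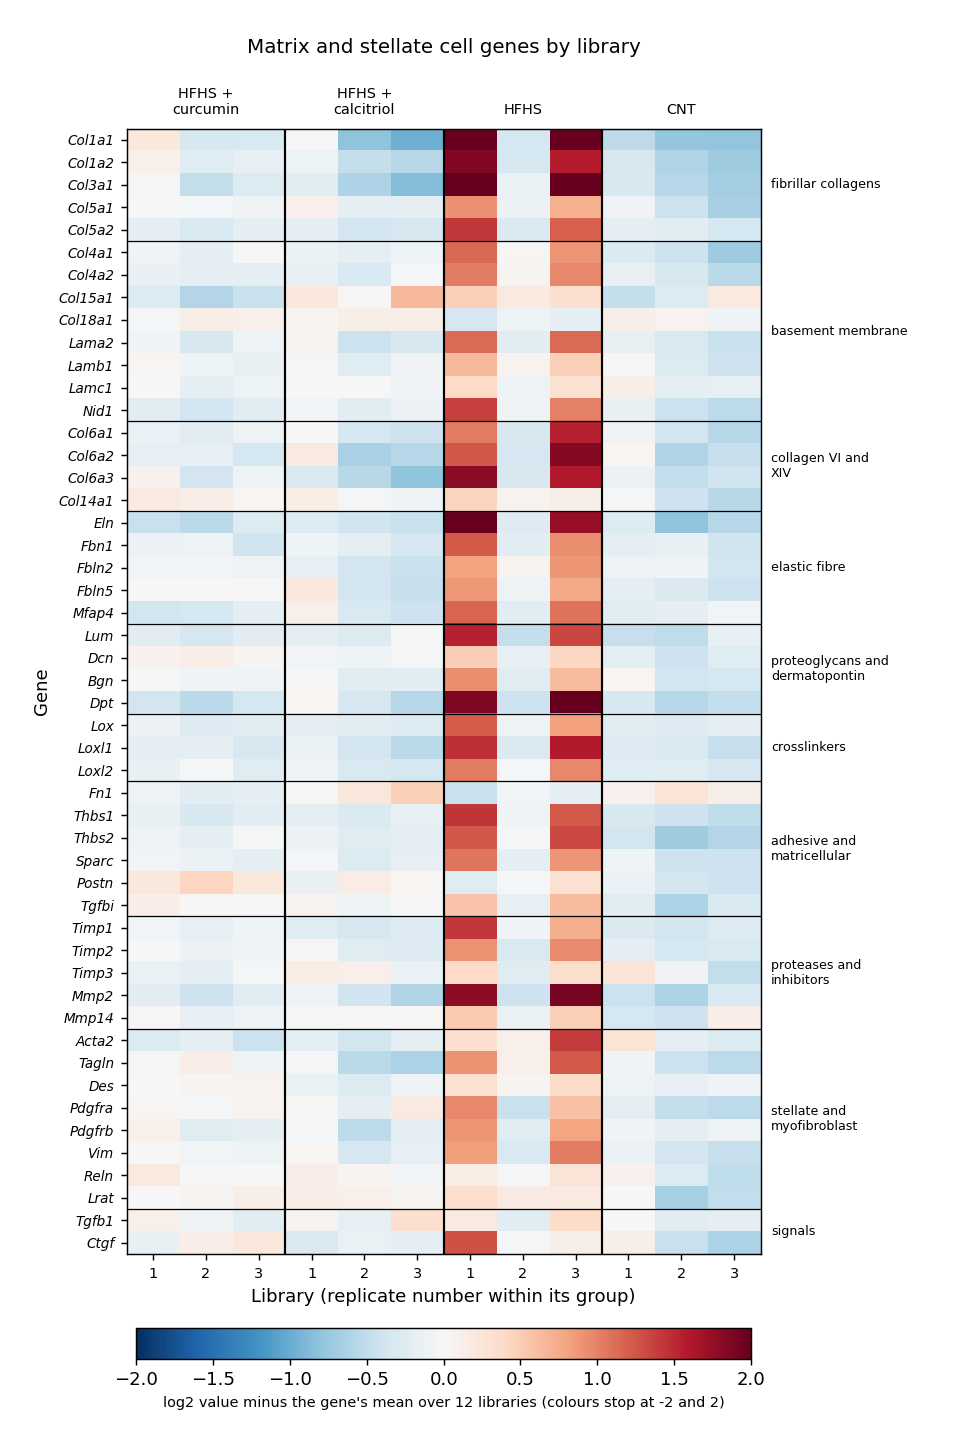
Heat map of the 50 genes (rows, by role) in the 12 libraries (columns, by group), coloured by the log2 value minus the gene's mean over the 12 libraries. HFHS replicates 1 and 3 are red in nearly every row, HFHS replicate 2 is close to the other groups, and the Fn1 and Col18a1 rows run the other way.

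Matrix and stellate cell genes had higher values in HFHS than in CNT livers, with Fn1 and Col18a1 as the exceptions. Of the 49 tested, 20 rose in HFHS livers (40.8%), against 6.55% of all 12637 genes tested, and 0 fell, against 5.36% of all genes. The list was chosen with earlier results of these data known, so its shares beside those of all genes are descriptions and not a test. The median change was 0.84 on the log2 scale over the 49 genes and -0.01 over all genes tested, and 47 of the 49 changes were above 0. An unadjusted p under 0.05 was reached by 47 of the 49 and by 31.9% of all genes. In 19 of the 49, every HFHS library lay above every CNT library, as in 12.7% of all genes. The 2 genes whose HFHS libraries all lay below the CNT libraries were Fn1 and Col18a1, a pattern seen in 14.1% of all genes.

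The high values lay mainly in HFHS replicates 1 and 3. HFHS replicate 1 exceeded the highest CNT library in 46 of the 49 genes, against 32.7% of all genes, with a median difference from the CNT mean of 1.32. HFHS replicate 3 did so in 47 of the 49, against 32.3% of all genes, with a median difference of 1.18. HFHS replicate 2 did so in 20 of the 49, against 25.9% of all genes, with a median difference of 0.16. The standard deviation between HFHS libraries had a median of 0.683 over the 49 genes, against 0.182 between CNT libraries. Over all genes these medians were 0.124 in HFHS and 0.114 in CNT. HFHS replicates 1 and 3 also stood apart over the whole set of genes tested, at -32.8 and -28.4 on the first principal component, with HFHS replicate 2 at 3.1 and all other libraries between 0.4 and 14.4.

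The count of 20 rests on single libraries. Leaving out HFHS replicate 1, HFHS replicate 3 or CNT replicate 2 brought it to 0. It was 10 without CNT replicate 1, 9 when CNT replicate 3 was dropped and 46 (44 higher, 2 lower) once HFHS replicate 2 was dropped. All genes moved in these fits too, with 11.9% passing in either direction over the 12 libraries, 1.71% without HFHS replicate 1, 2.13% without replicate 3 and 29.4% without replicate 2. Dropping CNT replicate 1, 2 or 3 gave 4.26%, 1.07% and 10.8%. With HFHS and CNT alone in the fit, 0 of the 49 passed. The median change stayed above 0 in these fits, at 0.64 when HFHS replicate 1 was dropped, 0.70 for replicate 3 and 1.25 for replicate 2. Without HFHS replicates 1 and 3 together it was 0.16, with 37 of the 49 above 0 and 0 passing. That fit takes the spread of the single HFHS library from the other groups.

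Markers of other cell types moved with these libraries, and their part in the result was not tested. Since the tissue was taken whole, a larger number of stellate cells or fibroblasts and more RNA per cell cannot be told apart. Each of 6 adipocyte markers had its highest value of all 12 libraries in HFHS replicate 3. Complement factor D (Cfd), one of them, had 3.35, 3.62 and 9.18 in HFHS libraries 1, 2 and 3 and 3.46, 3.43 and 3.43 in CNT. The summed level of that list was 5.39, 5.57 and 9.36 in the HFHS libraries and 5.87, 5.77 and 5.51 in the CNT libraries, and Lep stayed at or under 0.90 everywhere. Of the 6 adipocyte markers 2 passed the filter on low values, and the sum was lowest of the group in HFHS replicate 1. The 8 infiltrating macrophage markers deviated from their means by 1.15, -0.11 and 0.47 in HFHS and by -0.28, -0.58 and -0.38 in CNT. Cholangiocyte markers (7 genes) deviated by 0.85, -0.15 and 0.30 in HFHS and -0.18, -0.15 and 0.12 in CNT, and smooth muscle markers (6 genes) by 0.04, 0.00 and 0.47 in HFHS and 0.10, -0.03 and -0.19 in CNT. The 5 portal fibroblast markers deviated by 0.37, -0.10 and 0.55 in HFHS and -0.03, -0.22 and -0.19 in CNT. A further 14 stellate cell markers outside the 50 genes deviated by 0.08, -0.01 and -0.07 in HFHS and 0.05, -0.18 and -0.14 in CNT. These means average genes that went both ways, as 8 of the 13 tested had changes above 0, from -0.52 to 0.78, and Nes, which encodes the intermediate filament nestin, rose (log2 change 0.78 ± 0.20 (SE), adjusted p = 0.0342). Kupffer cell markers (5 genes) deviated by 0.37, 0.05 and -0.43 in HFHS and -0.07, -0.57 and -0.24 in CNT, endothelial markers (9 genes) by -0.10, -0.12 and 0.36 in HFHS and 0.20, -0.03 and -0.42 in CNT, and mesothelial markers (4 genes) by 0.30, -0.29 and 0.35 in HFHS and -0.20, -0.23 and -0.07 in CNT. Hepatocyte markers (8 genes), which define the tissue, deviated by -0.27, 0.00 and -0.25 in HFHS and 0.09, 0.16 and 0.22 in CNT, lowest in the HFHS libraries 1 and 3 in which matrix genes were high. All 8 had changes below 0 between HFHS and CNT, and Cps1, an enzyme of the urea cycle, fell (log2 change -0.84 ± 0.18 (SE), adjusted p = 0.0188). Their summed level lay between 20.22 and 21.06 in every library.

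**Figure D2:**
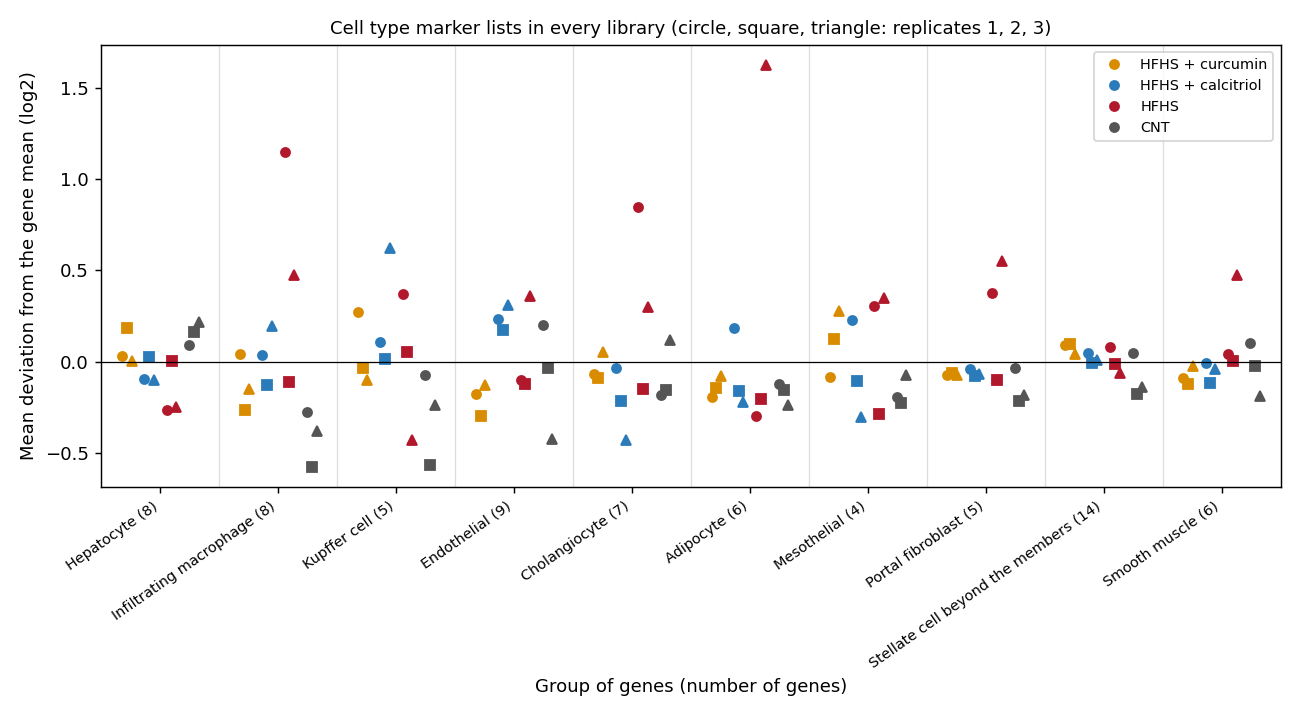
Mean deviation of each cell type marker list from its genes' means (vertical axis, log2), for every library, with the number of genes in each list below. Adipocyte markers stand at 1.63 in HFHS replicate 3 (triangle) and macrophage markers at 1.15 in HFHS replicate 1 (circle), while the 14 further stellate cell markers stay between -0.18 and 0.09 in all 12 libraries.

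The fibrillar collagens, which form the banded fibres of scar, showed the widest differences between libraries. Of the 5 genes, Col3a1 and Col5a1 rose and the median change of the 5 was 1.57. Col1a1, the alpha 1 chain of collagen I (chr11:94936224-94953042), had 10.13, 7.33 and 9.78 in HFHS libraries 1, 2 and 3, against 7.14, 6.88 and 6.87 in CNT (log2 change 2.11 ± 0.62 (SE), adjusted p = 0.054). Every HFHS value was above the CNT values, yet HFHS replicate 2 was within 0.5 of them, and the change did not pass the test. Col1a2, the alpha 2 chain of the same protein (chr6:4504814-4541544), had 10.21, 8.01 and 9.93 in HFHS and 8.03, 7.75 and 7.64 in CNT (log2 change 1.57 ± 0.46 (SE), adjusted p = 0.0523). Here HFHS replicate 2 fell just under CNT replicate 1. Col3a1, the collagen III gene (chr1:45311538-45349706), had 11.58, 9.21 and 11.34 in HFHS and 9.03, 8.78 and 8.65 in CNT (log2 change 1.89 ± 0.51 (SE), adjusted p = 0.0442, or 3.70-fold). The log2 change was 1.45 without HFHS replicate 1 and 2.64 without replicate 2. The groups did not overlap, and replicates 1 and 3 lay more than 2 units above replicate 2. Col5a1, a collagen V chain that governs fibril width, had 8.29, 7.25 and 8.09 in HFHS and 7.30, 6.94 and 6.71 in CNT (log2 change 0.89 ± 0.23 (SE), adjusted p = 0.033). HFHS replicate 2 was again the low one and lay within the CNT range. Col5a2, the partner chain, changed by 1.03 ± 0.33 without passing (adjusted p = 0.0621).

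The balance of the collagen I chains differed between libraries too. The Col1a1 value minus the Col1a2 value was -0.08, -0.68 and -0.15 in HFHS replicates 1, 2 and 3, against -0.89, -0.87 and -0.76 in CNT. In HFHS replicates 1 and 3 the chains were near parity on this scale, whereas HFHS replicate 2 lay close to CNT. This is a difference between log2 values of unequal transcripts, not a ratio of molecules.

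Basement membrane genes had smaller changes. Of 8 genes, 4 rose (Col4a1, Col4a2, Lamb1 and Nid1), and the median change was 0.81. Col4a1, a collagen IV chain (chr8:11198423-11312826), stood at 10.55, 9.42 and 10.29 in HFHS and 9.12, 8.99 and 8.70 in CNT (log2 change 1.15 ± 0.22 (SE), adjusted p = 0.0161). Col4a2, its partner from the shared promoter region (chr8:11312805-11449287), stood at 9.56, 8.59 and 9.49 in HFHS and 8.38, 8.21 and 7.99 in CNT (log2 change 1.02 ± 0.21 (SE), adjusted p = 0.0177). In both genes all HFHS libraries were above all CNT libraries. The laminin chain gene Lamb1 had 8.37, 7.79 and 8.19 in HFHS and 7.74, 7.44 and 7.31 in CNT (log2 change 0.62 ± 0.14 (SE), adjusted p = 0.0234). Nid1, which bridges laminin and collagen IV, had 10.35, 8.91 and 9.99 in HFHS and 8.83, 8.55 and 8.46 in CNT (log2 change 1.14 ± 0.28 (SE), adjusted p = 0.0308). Neither gene's groups overlapped, with HFHS replicate 2 closest to CNT in each. Col18a1, by contrast, had 13.61, 13.85 and 13.77 in HFHS and 14.07, 14.02 and 13.88 in CNT (log2 change -0.24 ± 0.10 (SE), adjusted p = 0.134), so that the HFHS libraries were the low ones without passing the test. The other 3 genes, Col15a1, Lama2 and Lamc1, had changes of 0.51, 0.99 and 0.27, and none passed.

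Set side by side, fibrillar collagens exceeded basement membrane genes in HFHS replicates 1 and 3 and nowhere else by as much. For each library the deviation of every gene from its mean over the 12 libraries was averaged within a role. The fibrillar mean was 1.78, -0.25 and 1.52 in HFHS and -0.29, -0.52 and -0.64 in CNT, and the basement membrane mean was 0.73, -0.02 and 0.61 in HFHS and -0.12, -0.27 and -0.33 in CNT. The fibrillar mean minus the basement membrane mean was 1.05, -0.23 and 0.90 in HFHS and -0.16, -0.25 and -0.31 in CNT. Against crosslinkers the same difference was 0.54, -0.10 and 0.40 in HFHS and -0.04, -0.25 and -0.32 in CNT. Against proteoglycans and dermatopontin it was 0.57, 0.08 and 0.41 in HFHS and -0.05, -0.05 and -0.33 in CNT. The order therefore held in HFHS replicates 1 and 3, and in HFHS replicate 2 all 3 differences were within the CNT range or within 0.15 of it. These means are descriptions and carry no test.

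**Figure D3:**
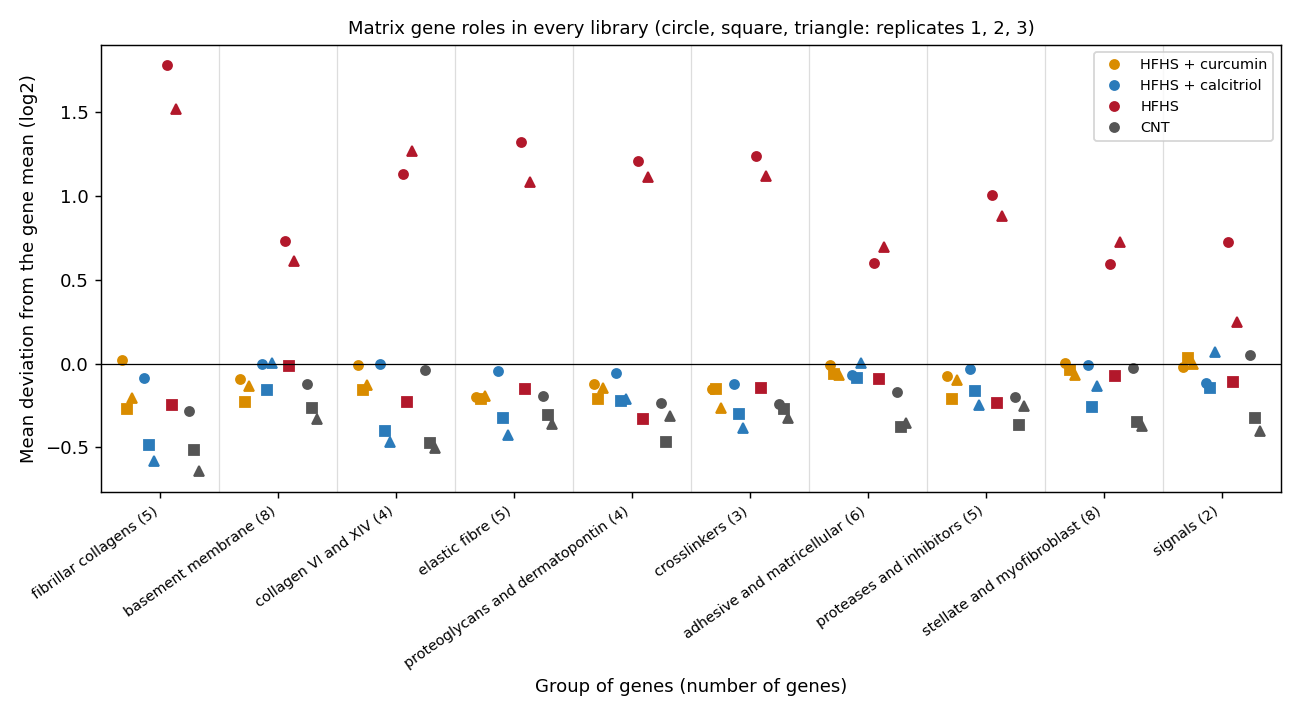
Mean deviation from the gene mean (vertical axis, log2) for each role, in every library. HFHS replicate 1 (red circle) and replicate 3 (red triangle) stand apart in every role, most in the fibrillar collagens at 1.78 and 1.52, while HFHS replicate 2 (red square) lies among the other groups.

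Collagen VI forms beaded microfilaments around cells, and collagen XIV sits on the surface of fibrils. Of these 4 genes only Col14a1 rose, and the median change was 1.17. Col14a1 had 10.77, 10.40 and 10.45 in HFHS and 10.30, 9.91 and 9.77 in CNT (log2 change 0.54 ± 0.13 (SE), adjusted p = 0.0277). All 3 HFHS libraries lay above CNT, replicate 2 among them. Col6a3 had 9.59, 7.47 and 9.38 in HFHS and 7.68, 7.30 and 7.39 in CNT (log2 change 1.36 ± 0.45 (SE), adjusted p = 0.0698). Its HFHS replicate 2 fell within the CNT range, and Col6a1 and Col6a2, at changes of 1.09 and 1.26, had the same layout and did not pass either.

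Among the elastic fibre genes, Eln, Fbln2 and Fbln5 rose, out of 5. Elastin itself (Eln) stood at 7.84, 5.04 and 7.05 in HFHS and 5.03, 4.50 and 4.73 in CNT (log2 change 1.89 ± 0.54 (SE), adjusted p = 0.0472, or 3.71-fold). The log2 change was 1.29 without HFHS replicate 1 and 2.69 without replicate 2. HFHS replicate 2 exceeded the highest CNT library by only 0.01. Fbln2, a fibulin of elastic fibres and basement membranes, had 6.30, 5.58 and 6.38 in HFHS and 5.40, 5.41 and 5.14 in CNT (log2 change 0.77 ± 0.17 (SE), adjusted p = 0.0227). Fbln5, which is needed for elastic fibre assembly, had 7.44, 6.47 and 7.34 in HFHS and 6.40, 6.29 and 6.17 in CNT (log2 change 0.80 ± 0.23 (SE), adjusted p = 0.047). Both fibulins kept all HFHS libraries above CNT. Fbn1, the fibrillin of the microfibril scaffold, and Mfap4 had changes of 0.89 and 0.84 that did not pass.

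The small leucine-rich proteoglycans bind collagen fibrils and set their spacing. Decorin (Dcn) was the one of 4 in this role that rose, with 12.38, 11.73 and 12.30 in HFHS and 11.71, 11.48 and 11.65 in CNT (log2 change 0.53 ± 0.14 (SE), adjusted p = 0.0353). Its HFHS replicate 2 exceeded the highest CNT library by 0.02. Lumican (Lum) had 9.63, 7.61 and 9.43 in HFHS and 7.63, 7.58 and 7.93 in CNT (log2 change 1.17 ± 0.41 (SE), adjusted p = 0.0856). Biglycan (Bgn) had 12.50, 11.33 and 12.20 in HFHS and 11.60, 11.18 and 11.21 in CNT (log2 change 0.68 ± 0.23 (SE), adjusted p = 0.074). In both, HFHS replicate 2 lay at the level of CNT. Dermatopontin (Dpt) had a change of 1.63 ± 0.52 (adjusted p = 0.0641).

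Of the lysyl oxidase genes, Loxl2 rose, with 6.68, 5.60 and 6.60 in HFHS and 5.39, 5.39 and 5.30 in CNT (log2 change 0.93 ± 0.22 (SE), adjusted p = 0.0264). The groups did not overlap. Loxl1, which acts mainly on elastin, had 6.73, 4.98 and 6.86 in HFHS and 5.02, 4.97 and 4.81 in CNT (log2 change 1.26 ± 0.38 (SE), adjusted p = 0.0546). HFHS replicate 2 lay within the CNT values. Lox had 4.32, 3.0 and 3.92 in HFHS and 2.88, 2.85 and 2.93 in CNT, with 2.98, 2.85 and 2.87 under curcumin and 2.93, 2.88 and 2.83 under calcitriol. It passed the floor of 3.32 in HFHS replicates 1 and 3 only, fewer libraries than the 3 the filter asks for, and no test is given.

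The adhesive and matricellular proteins, which link cells to matrix, held 4 genes that rose out of 6. Thbs1, a thrombospondin that can activate latent TGF-beta, had 6.69, 5.18 and 6.49 in HFHS and 4.95, 4.85 and 4.76 in CNT (log2 change 1.27 ± 0.29 (SE), adjusted p = 0.0252). Thbs2, a related thrombospondin, had 7.62, 6.35 and 7.70 in HFHS and 6.02, 5.68 and 5.80 in CNT (log2 change 1.39 ± 0.28 (SE), adjusted p = 0.0162). All HFHS libraries were above CNT in both. Sparc, a collagen-binding protein, had 11.35, 10.08 and 11.16 in HFHS and 10.19, 9.87 and 9.87 in CNT (log2 change 0.89 ± 0.25 (SE), adjusted p = 0.0452). Tgfbi, named for its induction by TGF-beta, had 11.06, 10.33 and 11.12 in HFHS and 10.28, 9.86 and 10.18 in CNT (log2 change 0.73 ± 0.18 (SE), adjusted p = 0.0279). The Sparc groups overlapped at HFHS replicate 2, and the Tgfbi groups did not overlap. Periostin (Postn) had another order, at 7.83, 8.05 and 8.38 in HFHS and 7.96, 7.71 and 7.64 in CNT (log2 change 0.32 ± 0.14 (SE), adjusted p = 0.133). Its lowest HFHS library was replicate 1, one of the highest for the collagens.

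Fibronectin (Fn1) went against the other genes. It stood at 14.80, 15.19 and 15.05 in HFHS and 15.34, 15.50 and 15.37 in CNT (log2 change -0.39 ± 0.14 (SE), adjusted p = 0.0839). Every HFHS library was below every CNT library, with replicate 1 lowest, and the change did not pass the test. Fn1 and Col18a1 also had the highest levels per kilobase of transcript among the 50 genes, at 11.86 and 11.18 on the log2 scale in CNT, followed by Dcn at 9.07 and Bgn at 8.72. The lowest such level was that of Lox, at 0.63.

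Of the 5 proteases and inhibitors, only Timp1 rose. Timp1, an inhibitor of metalloproteinases, had 4.84, 3.36 and 4.15 in HFHS and 3.14, 3.07 and 3.15 in CNT (log2 change 1.0 ± 0.26 (SE), adjusted p = 0.0353). Its values lie near the floor of 3.32, where a log2 scale of this kind probably understates changes. Outside HFHS it reached that floor only in the curcumin libraries with 3.37 and 3.35, fewer than the 3 the filter asks for. Timp1 was therefore tested, and counted among the 20 genes, only through the group in which it was high. Mmp2, a gelatinase, had 7.76, 5.56 and 7.88 in HFHS and 5.54, 5.34 and 5.67 in CNT (log2 change 1.55 ± 0.49 (SE), adjusted p = 0.0612). Mmp14, the membrane protease that activates Mmp2, had 9.82, 9.15 and 9.76 in HFHS and 8.93, 8.88 and 9.42 in CNT (log2 change 0.50 ± 0.17 (SE), adjusted p = 0.0742). In both, HFHS replicate 2 fell within the CNT range. Timp2 and Timp3 had changes of 0.79 and 0.27, and neither passed.

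Stellate cell and myofibroblast genes split between those that rose, Tagln, Des and Lrat, and 5 that did not pass. Transgelin (Tagln), an actin-binding protein of contractile cells, had 7.25, 6.46 and 7.58 in HFHS and 6.27, 5.93 and 5.84 in CNT (log2 change 1.08 ± 0.25 (SE), adjusted p = 0.0237). Desmin (Des), the intermediate filament of quiescent and activated mouse stellate cells, had 6.68, 6.43 and 6.75 in HFHS and 6.27, 6.21 and 6.29 in CNT (log2 change 0.36 ± 0.09 (SE), adjusted p = 0.0306). Lrat had 9.23, 9.04 and 9.05 in HFHS and 8.87, 8.20 and 8.38 in CNT (log2 change 0.62 ± 0.13 (SE), adjusted p = 0.0191). All HFHS libraries lay above CNT in the 3 genes, and for Lrat HFHS replicate 2 was level with replicate 3. Acta2 had 5.08, 4.84 and 6.14 in HFHS and 5.02, 4.55 and 4.46 in CNT (log2 change 0.68 ± 0.27 (SE), adjusted p = 0.117). Only HFHS replicate 3 stood clear of CNT, whereas replicate 1, with the highest Col1a1 level, was 0.06 above CNT replicate 1. Pdgfra and Pdgfrb encode the receptors through which PDGF drives these cells to divide. Pdgfra had 8.35, 6.95 and 7.98 in HFHS and 7.21, 6.92 and 6.87 in CNT (log2 change 0.77 ± 0.27 (SE), adjusted p = 0.0829). Pdgfrb had 8.67, 7.54 and 8.57 in HFHS and 7.72, 7.59 and 7.68 in CNT (log2 change 0.59 ± 0.24 (SE), adjusted p = 0.125). For Pdgfrb, HFHS replicate 2 was below all CNT libraries. Vimentin (Vim), an intermediate filament of mesenchymal cells, had 9.50, 8.36 and 9.68 in HFHS and 8.54, 8.29 and 8.19 in CNT (log2 change 0.84 ± 0.27 (SE), adjusted p = 0.0612). Reelin (Reln), a secreted glycoprotein of stellate cells, had 10.57, 10.39 and 10.68 in HFHS and 10.50, 10.15 and 9.91 in CNT (log2 change 0.36 ± 0.13 (SE), adjusted p = 0.0856), with HFHS replicate 2 inside the CNT range in both genes.

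Neither signal gene passed. Tgfb1 had 7.45, 7.06 and 7.63 in HFHS and 7.25, 7.05 and 7.09 in CNT (log2 change 0.25 ± 0.15 (SE), adjusted p = 0.276), with overlapping groups. Ctgf, a matricellular target of TGF-beta and YAP signalling listed as Ccn2 in the annotation, had 8.35, 7.06 and 7.20 in HFHS and 7.20, 6.64 and 6.45 in CNT (log2 change 0.77 ± 0.29 (SE), adjusted p = 0.1). It was high in HFHS replicate 1 only, and replicate 3, high for the collagens, was level with CNT replicate 1.

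**Figure D4:**
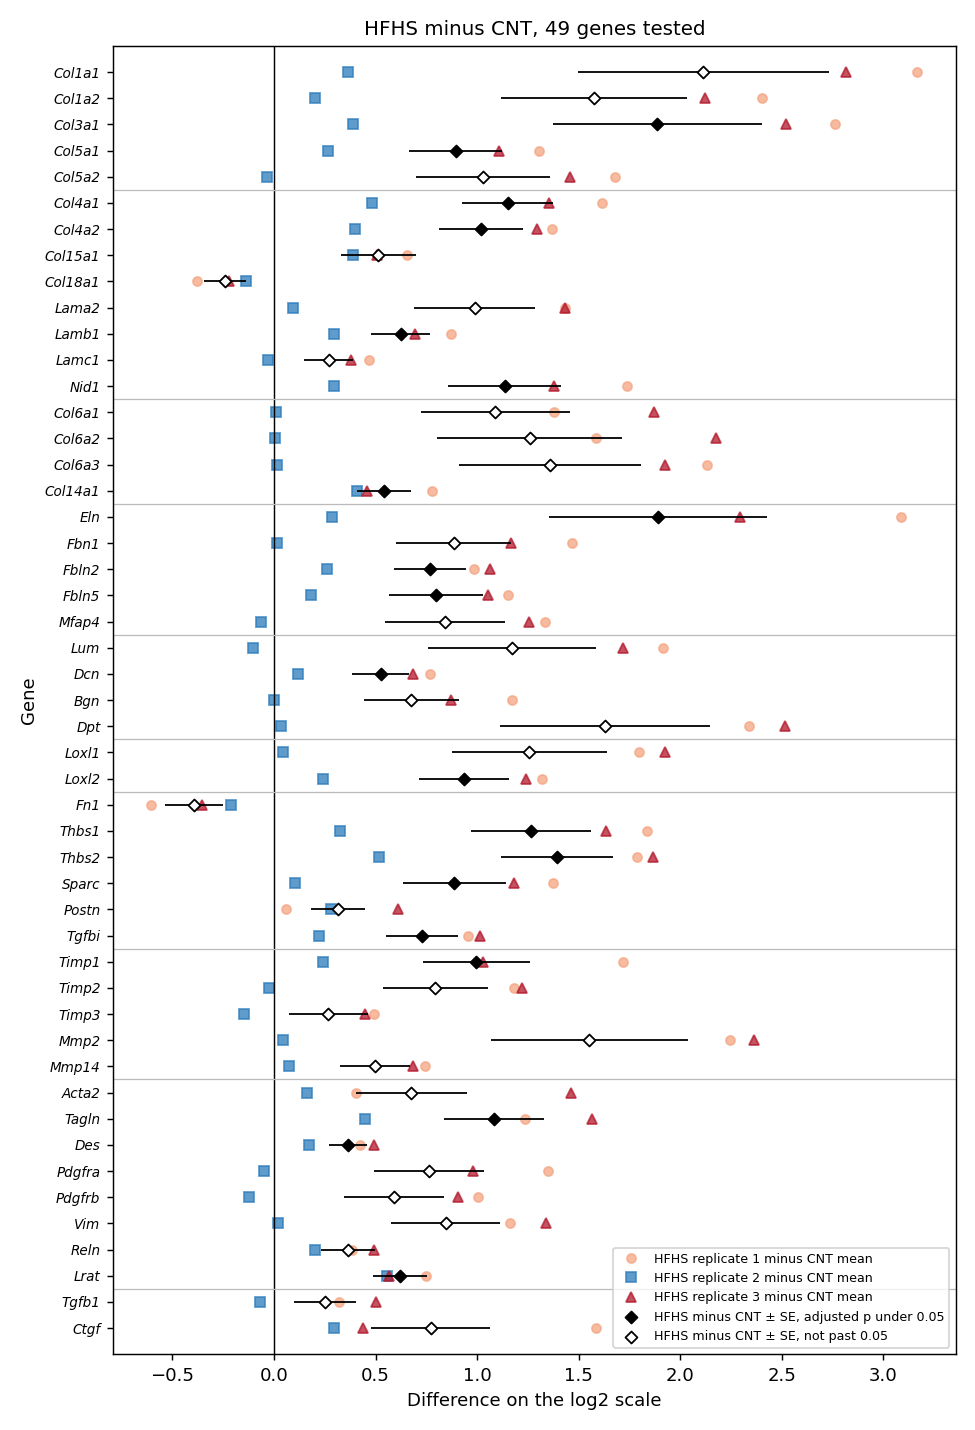
HFHS minus CNT on the log2 scale (horizontal axis) for the 49 genes tested, ordered by role. Diamonds are the modelled difference with its SE (filled: adjusted p under 0.05), and coloured points are each HFHS library minus the CNT mean. Replicate 2 (blue squares) stays under 0.6 for all 49 genes, while replicates 1 and 3 reach 3.17 and 2.82 for Col1a1.

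Other genes of the same pathways, from lists that are not part of the 50, were counted for comparison. Among 15 genes of collagen processing, Fkbp10, a collagen chaperone, rose in HFHS livers and 0 fell, with a median change of -0.01. A share of 1 in 15 is near the 6.55% of all genes that rose. Among 10 tested further proteases and inhibitors 5 rose and 0 fell, with a median of 0.73. Among those that rose were Ctss (cathepsin S, log2 change 0.71), Adamts1 (a matrix metalloprotease, 0.49) and Mmp12 (macrophage elastase, 1.95). Mmp12 had 7.58, 5.14 and 6.36 in HFHS and 4.32, 4.60 and 4.31 in CNT, again lowest of the HFHS group in replicate 2. Of 15 TGF-beta pathway genes 1 rose, again a share near that of all genes, the SMAD corepressor gene Skil (log2 change 0.42 ± 0.12 (SE), adjusted p = 0.0427), and 0 fell. Of 4 PDGF ligand genes 0 passed, with changes from 0.29 to 0.45. Of 10 tested matrix receptors, the collagen receptor Ddr2 (log2 change 0.61 ± 0.13 (SE), adjusted p = 0.0186) and the integrin gene Itgb5 (log2 change 0.34 ± 0.08 (SE), adjusted p = 0.028) rose, and 0 fell.

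Both treated groups were then set against HFHS, which asks whether matrix gene levels differed after the liposomes. These comparisons share the 3 HFHS libraries, and their values are given side by side. In livers of curcumin-treated mice 0 of the 49 genes passed in either direction, against 0.15% of all genes higher and 0.15% lower. The median change was -0.73, against 0.00 over all genes, and 33 of the 49 had an unadjusted p under 0.05, against 24.7% of all genes. All 3 curcumin libraries lay below all HFHS libraries in 11 of the 49 genes, against 11.6% of all genes, and above them for Col18a1 alone, against 11.9%. In livers of calcitriol-treated mice 3 genes fell (Fbln2, Tagln and Des), against 1.23% of all genes, and 0 rose, against 0.973%. The median change was -0.82, and 38 of the 49 had an unadjusted p under 0.05, against 21.3% of all genes. The calcitriol libraries lay below HFHS in 15 of the 49 genes, against 11.8% of all genes, and above HFHS for Fn1 and Col18a1, against 12.6%.

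Some marker lists that stood apart from CNT in HFHS replicate 1, replicate 3 or both were read in the treated libraries too. Macrophage markers deviated by 0.04, -0.27 and -0.15 under curcumin and 0.04, -0.13 and 0.20 under calcitriol, and the adipocyte sum was 5.58, 5.68 and 5.82 under curcumin and 6.10, 5.75 and 5.55 under calcitriol. Cholangiocyte markers deviated by -0.07, -0.09 and 0.05 under curcumin and -0.03, -0.22 and -0.43 under calcitriol, and portal fibroblast markers by -0.07, -0.06 and -0.07 under curcumin and -0.04, -0.08 and -0.07 under calcitriol. For both lists all 6 treated libraries lay below HFHS replicates 1 and 3. Mesothelial markers deviated by -0.09, 0.12 and 0.28 under curcumin and 0.23, -0.11 and -0.30 under calcitriol, and hepatocyte markers by 0.03, 0.18 and 0.01 under curcumin and -0.10, 0.02 and -0.10 under calcitriol, where every treated library was above HFHS replicates 1 and 3 for hepatocytes. Their part in the differences was not tested.

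The counts of treated against HFHS livers turned on which HFHS libraries were in the fit. Without HFHS replicate 2, 41 of the 49 passed for curcumin (1 higher, 40 lower), against 25.4% of all genes in either direction. For calcitriol 41 passed as well (2 higher, 39 lower), against 17.4% of all genes. Without HFHS replicates 1 and 3 together the median change was 0.06 for curcumin, with 31 of the 49 above 0, and -0.00 for calcitriol, and 0 passed for either. Dropping HFHS replicate 1 or HFHS replicate 3 left 0 for either treatment. The 3 calcitriol calls were also lost without calcitriol replicate 2 or 3, without any 1 of the curcumin libraries and without CNT replicate 2, 1 call was left without CNT replicate 1, and 2 groups alone in the fit gave 0. For curcumin 1 gene passed without CNT replicate 3, against 1.76% of all genes. The replicate numbers paired curcumin with HFHS libraries, as each of the 3 pairs deviated together. With the replicate number as a block shared by all 4 groups, 1 of the 49 passed, a share near the 1.92% of all genes. That gene was Col15a1 (log2 change -0.76 ± 0.15, adjusted p = 0.0465).

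The 3 genes that fell under calcitriol are 2 of contractile or stellate cells and 1 of elastic fibres. Fbln2 had 5.34, 5.13 and 5.05 in calcitriol replicates 1, 2 and 3 (log2 change -0.92 ± 0.17 (SE), adjusted p = 0.0311), and 5.45, 5.45 and 5.40 under curcumin (adjusted p = 0.077 against HFHS). Tagln had 6.32, 5.81 and 5.73 under calcitriol (log2 change -1.14 ± 0.25 (SE), adjusted p = 0.0424) and 6.33, 6.49 and 6.27 under curcumin (adjusted p = 0.119). Des had 6.24, 6.10 and 6.30 under calcitriol (log2 change -0.41 ± 0.09 (SE), adjusted p = 0.0455) and 6.38, 6.44 and 6.45 under curcumin (adjusted p = 0.205). All calcitriol values were below all HFHS values in the 3 genes. For Tagln and Des, curcumin libraries overlapped HFHS replicate 2.

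**Figure D5:**
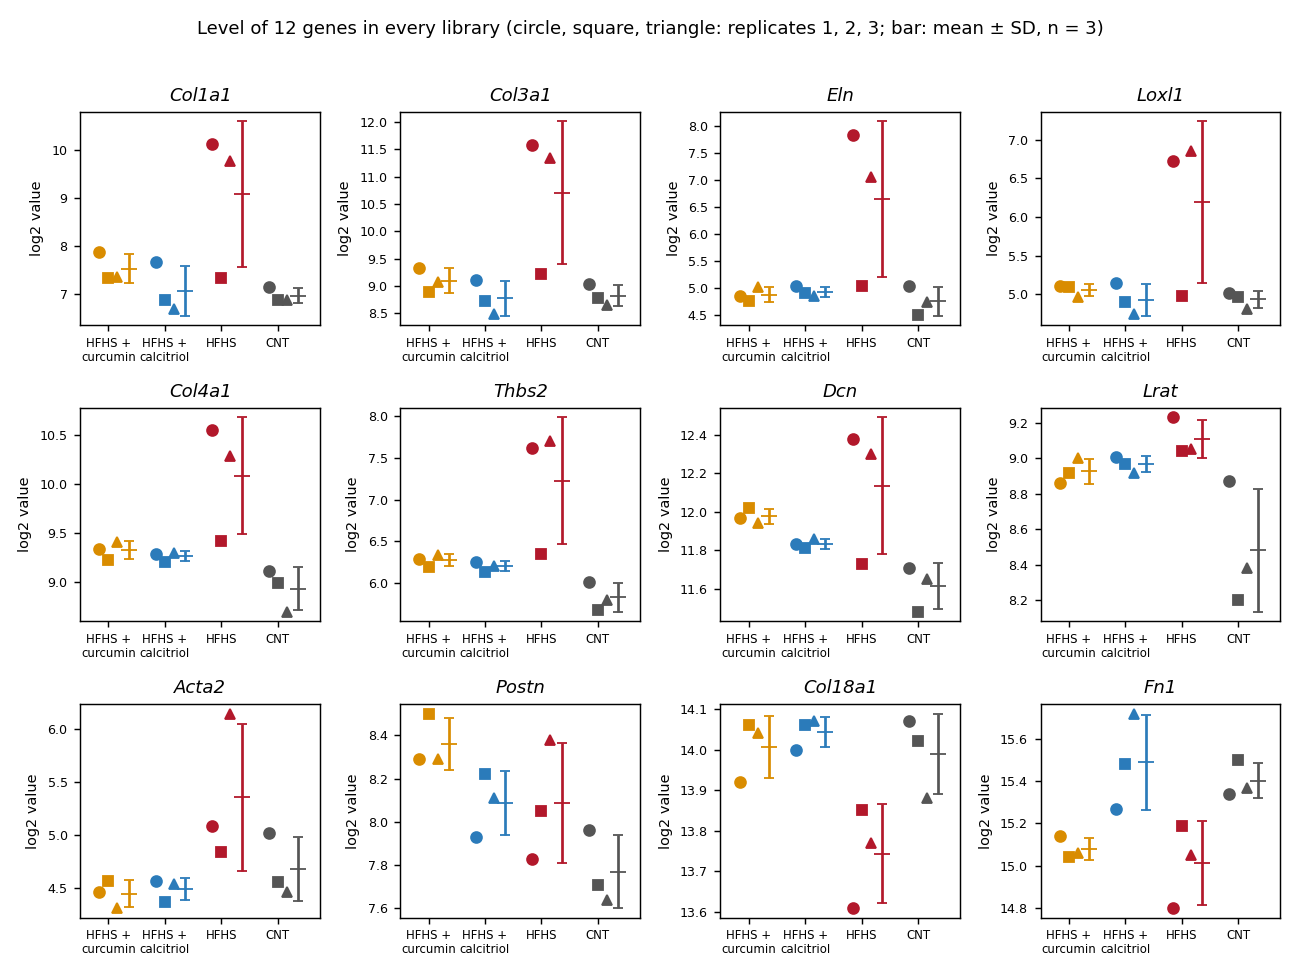
Log2 values (vertical axes, each with its own range) of 12 genes in every library, by group, with the mean ± SD of 3 libraries beside them. HFHS replicates 1 (circle) and 3 (triangle) are high for the collagens, Eln and Loxl1, HFHS replicate 2 (square) lies near the treated groups, and Fn1 and Col18a1 are low in HFHS.

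For the fibrillar collagens the treated libraries lay near CNT and near HFHS replicate 2. Col1a1 had 7.87, 7.34 and 7.36 under curcumin and 7.66, 6.86 and 6.68 under calcitriol, changes from HFHS of -1.56 ± 0.62 and -2.01 ± 0.62 (adjusted p = 0.164 and 0.111). Col1a2 had 8.46, 8.12 and 8.19 under curcumin and 8.25, 7.88 and 7.80 under calcitriol. Col3a1 had 9.33, 8.88 and 9.08 under curcumin and 9.11, 8.73 and 8.48 under calcitriol, changes of -1.61 ± 0.51 and -1.94 ± 0.51 (adjusted p = 0.115 and 0.0792). In calcitriol livers replicate 1 was the highest of the 3 for each of these genes. Col5a1 had 7.38, 7.34 and 7.30 under curcumin and 7.48, 7.19 and 7.20 under calcitriol. The Col1a1 value minus the Col1a2 value was -0.59, -0.78 and -0.83 under curcumin and -0.59, -1.02 and -1.12 under calcitriol, close to CNT and to HFHS replicate 2.

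Among the basement membrane genes, Col4a1 had 9.34, 9.23 and 9.41 under curcumin and 9.29, 9.21 and 9.30 under calcitriol. Col4a2 had 8.38, 8.33 and 8.34 under curcumin and 8.39, 8.23 and 8.49 under calcitriol, changes from HFHS of -0.86 ± 0.21 and -0.84 ± 0.21 (adjusted p = 0.0724 and 0.0599). Both treated groups lay wholly under HFHS in these 2 genes. Lamb1 had 7.76, 7.64 and 7.57 under curcumin and 7.70, 7.47 and 7.65 under calcitriol, also under HFHS throughout. Nid1 had 8.76, 8.59 and 8.77 under curcumin and 8.92, 8.76 and 8.86 under calcitriol. Col18a1 stood above HFHS in both, at 13.92, 14.06 and 14.04 under curcumin (log2 change 0.26 ± 0.10 (SE), adjusted p = 0.153) and 14, 14.06 and 14.07 under calcitriol (log2 change 0.30 ± 0.10 (SE), adjusted p = 0.129). These levels overlapped CNT.

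Col15a1, a collagen of the zone between basement membrane and stroma, was the gene in which the treatments lay furthest apart. It had 7.39, 7.07 and 7.22 under curcumin, 7.87, 7.68 and 8.31 under calcitriol, 8.13, 7.86 and 7.98 in HFHS and 7.18, 7.38 and 7.86 in CNT. The curcumin libraries lay under every HFHS library (log2 change -0.76 ± 0.18 (SE), adjusted p = 0.0724), and calcitriol overlapped HFHS (log2 change -0.04 ± 0.18 (SE), adjusted p = 0.935).

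In the remaining matrix roles the treated libraries lay nearer to HFHS replicate 2 than to the other HFHS libraries for most genes. Col6a3 had 7.87, 7.41 and 7.70 under curcumin and 7.48, 7.23 and 6.99 under calcitriol. Col14a1 had 10.51, 10.46 and 10.37 under curcumin and 10.48, 10.30 and 10.24 under calcitriol, values that overlapped HFHS. Eln had 4.85, 4.76 and 5.02 under curcumin (log2 change -1.77 ± 0.54 (SE), adjusted p = 0.103) and 5.03, 4.91 and 4.85 under calcitriol. All 6 treated Eln libraries were below HFHS replicate 2. Fbln5 had 6.58, 6.57 and 6.59 under curcumin and 6.79, 6.19 and 6.11 under calcitriol, where calcitriol replicate 1 was the high one. Lum had 7.88, 7.75 and 7.87 under curcumin and 7.92, 7.82 and 8.07 under calcitriol, which is above HFHS replicate 2 in every treated library. Dcn had 11.97, 12.02 and 11.94 under curcumin and 11.83, 11.81 and 11.86 under calcitriol. Bgn had 11.57, 11.48 and 11.50 under curcumin and 11.54, 11.36 and 11.35 under calcitriol. Both proteoglycans lay between HFHS replicate 2 and the other HFHS libraries. Loxl1 had 5.10, 5.09 and 4.96 under curcumin and 5.15, 4.90 and 4.74 under calcitriol. Loxl2 had 5.49, 5.62 and 5.39 under curcumin and 5.57, 5.33 and 5.29 under calcitriol (log2 change -0.90 ± 0.22 (SE), adjusted p = 0.0599). The calcitriol libraries lay wholly under HFHS for Loxl2, and the curcumin libraries overlapped HFHS replicate 2.

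The thrombospondins lay under HFHS in all 6 treated libraries. Thbs1 had 5.11, 4.94 and 5.04 under curcumin and 5.09, 4.97 and 5.12 under calcitriol. Thbs2 had 6.29, 6.20 and 6.34 under curcumin (log2 change -0.95 ± 0.28 (SE), adjusted p = 0.0912) and 6.26, 6.14 and 6.21 under calcitriol. Curcumin replicate 3 was only 0.01 below HFHS replicate 2 for Thbs2. Sparc had 10.23, 10.17 and 10.10 under curcumin and 10.24, 10 and 10.11 under calcitriol. Tgfbi had 10.62, 10.50 and 10.50 under curcumin and 10.56, 10.40 and 10.50 under calcitriol. Both overlapped HFHS. Fn1 had 15.14, 15.04 and 15.06 under curcumin and 15.27, 15.48 and 15.72 under calcitriol, changes from HFHS of 0.07 ± 0.14 and 0.47 ± 0.14 (adjusted p = 0.796 and 0.0936). The calcitriol libraries were above HFHS, while the curcumin libraries overlapped HFHS.

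For the inhibitors and proteases, Timp1 had 3.37, 3.27 and 3.35 under curcumin and 3.19, 3.10 and 3.17 under calcitriol (log2 change -0.96 ± 0.26 (SE), adjusted p = 0.0779). Mmp2 had 5.77, 5.56 and 5.75 under curcumin and 5.90, 5.58 and 5.38 under calcitriol. Mmp14 had 9.31, 9.12 and 9.19 under curcumin and 9.26, 9.32 and 9.31 under calcitriol. Of the 3, Timp1 under calcitriol was the only case with no overlap with HFHS.

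Among stellate cell genes, Acta2 had 4.46, 4.56 and 4.31 under curcumin (log2 change -0.91 ± 0.27 (SE), adjusted p = 0.0968) and 4.56, 4.37 and 4.54 under calcitriol, below HFHS in all 6 libraries. Lrat had 8.86, 8.92 and 9.0 under curcumin and 9.01, 8.97 and 8.92 under calcitriol, also below HFHS throughout. Pdgfra had 7.44, 7.35 and 7.47 under curcumin and 7.41, 7.21 and 7.57 under calcitriol. Pdgfrb had 7.89, 7.54 and 7.60 under curcumin and 7.76, 7.27 and 7.61 under calcitriol. Both receptors overlapped HFHS. Vim had 8.66, 8.61 and 8.55 under curcumin and 8.70, 8.33 and 8.49 under calcitriol. Reln had 10.62, 10.40 and 10.43 under curcumin and 10.55, 10.47 and 10.37 under calcitriol, with changes from HFHS of -0.06 and -0.09. Tgfb1 had 7.37, 7.20 and 7.05 under curcumin and 7.32, 7.10 and 7.59 under calcitriol. Ctgf had 6.94, 7.21 and 7.29 under curcumin and 6.79, 6.95 and 6.89 under calcitriol, below every HFHS library under calcitriol only.

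Against CNT, few of these genes passed in the treated livers, and both comparisons share the 3 CNT libraries. Under curcumin 1 of the 49 rose, Postn, against 1.6% of all genes, and 0 fell, against 1.91%. The median change was 0.18, and 43 of the 49 changes were above 0, against 49.5% of all genes. The curcumin libraries lay above all CNT libraries in 15 of the 49 genes, against 12.9% of all genes, and below them in 1, Fn1, against 12.7%. Postn, a matricellular protein of fibroblasts, had 8.29, 8.50 and 8.29 in curcumin libraries, 7.93, 8.22 and 8.11 in calcitriol libraries and 7.96, 7.71 and 7.64 in CNT libraries, and the curcumin change was 0.59 ± 0.14 (SE, adjusted p = 0.0353). All curcumin libraries were above CNT. The Postn call was lost without any 1 of the curcumin libraries, without calcitriol replicate 3 and without CNT replicate 2 or 3. The count was 3 without CNT replicate 1, against 1.27% of all genes in either direction, and 5 without HFHS replicate 2, against 5.9%.

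The count for curcumin differed with the groups that shared the error estimate. With curcumin and CNT alone in the fit 5 of the 49 genes passed, against 5.1% of all genes in either direction. All 5 were higher: Postn (adjusted p = 0.0121), Dcn (log2 change 0.36, adjusted p = 0.0377), Thbs2 (0.45, adjusted p = 0.0423), Tgfbi (0.44, adjusted p = 0.0454) and Pdgfra (0.42, adjusted p = 0.0494). In the fit over 4 groups the adjusted p was 0.19 for Dcn, 0.421 for Thbs2, 0.217 for Tgfbi and 0.447 for Pdgfra. The fibrillar collagens were not among them. In the fit over 4 groups Col1a1 changed by 0.56 ± 0.62 between curcumin and CNT (adjusted p = 0.69), although its curcumin libraries were all above CNT. That SE pools all 4 groups, and the SD of Col1a1 was 1.53 in HFHS, 0.3 in curcumin and 0.15 in CNT libraries. The median SD between libraries over the 49 genes tested was 0.092 in the curcumin group, 0.146 in the calcitriol group and 0.182 in CNT.

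Under calcitriol 0 of the 49 passed against CNT, with 1.77% of all genes higher and 2.27% lower. The median change was 0.11, and 38 of the 49 changes were above 0, against 49.2% of all genes. In 7 of the 49 genes every calcitriol library lay above all CNT libraries, against 14.9% of all genes. With calcitriol and CNT alone in the fit, 0 passed, against 4.34% of all genes. Each of the 3 calcitriol libraries deviated with the CNT library of its number. With the number as a block shared by all 4 groups, 2 of the 49 passed, a share near the 4.96% of all genes. They were Lrat (log2 change 0.48 ± 0.12, adjusted p = 0.0485) and Col14a1 (log2 change 0.34 ± 0.08, adjusted p = 0.0471). In the fit without the block these were 0.48 ± 0.13 (adjusted p = 0.0633) and 0.34 ± 0.13 (adjusted p = 0.15). All calcitriol libraries exceeded CNT for Lrat, and CNT replicate 1 overlapped calcitriol for Col14a1. Dropping CNT replicate 1 gave 1 gene, dropping CNT replicate 3 gave 1 and dropping HFHS replicate 2 gave 3. In these fits 1.79%, 4.82% and 9.04% of all genes passed in either direction.

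P4ha1, the prolyl 4-hydroxylase subunit that stabilises the collagen triple helix, is outside the 50 genes and was lower in every treated library. It had 7.49, 7.65 and 7.70 under curcumin, 7.73, 7.56 and 7.73 under calcitriol, 8.18, 8.07 and 8.29 in HFHS and 8.24, 8.0 and 7.99 in CNT. It fell under curcumin against HFHS (log2 change -0.56 ± 0.09 (SE), adjusted p = 0.0384) and against CNT (log2 change -0.46 ± 0.09 (SE), adjusted p = 0.022). It also fell under calcitriol against HFHS (log2 change -0.50 ± 0.09 (SE), adjusted p = 0.029) and against CNT (log2 change -0.40 ± 0.09 (SE), adjusted p = 0.0386). HFHS and CNT overlapped. It was the only 1 of 15 collagen processing genes to pass in the curcumin comparisons, in which 0.15% (HFHS) and 1.91% (CNT) of all genes fell, and Bmp1, the procollagen C-proteinase, rose under calcitriol against HFHS (log2 change 0.45 ± 0.10 (SE), adjusted p = 0.0458). In the TGF-beta pathway list Smad2 fell under curcumin against CNT (log2 change -0.29 ± 0.07 (SE), adjusted p = 0.0496) and Skil rose under calcitriol against CNT (log2 change 0.55 ± 0.12 (SE), adjusted p = 0.0302), with 0 of 15 passing for either treatment against HFHS. No further protease, PDGF ligand or matrix receptor passed in a treatment comparison.

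Between the treatments, given in the same weeks at doses that the labels do not state, 0 of the 49 genes passed in limma. An unadjusted p under 0.05 was reached by 3 of the 49. Over all genes 0% passed in either direction, and 1873 had an unadjusted p under 0.05. With the 2 groups alone in the fit 214 of all genes passed (1.69%) and 0 of the 49. With library weights 577 of all genes passed (4.57%) and 1 of the 49. Curcumin libraries lay above calcitriol libraries in 5 genes (Fbln2, Dcn, Postn, Timp1 and Des), against 14.9% of all genes, and below them in 2 (Col15a1 and Fn1), against 13.8%. Col15a1 differed by -0.73 ± 0.18 (adjusted p = 0.2, 95% interval -1.13 to -0.33). Fn1 differed by -0.41 ± 0.14 (adjusted p = 0.26, 95% interval -0.71 to -0.10). The Des difference was 0.21 ± 0.09 (adjusted p = 0.325). For Col1a1 the difference was 0.45, with an interval of -0.93 to 1.84, which leaves room for a change of either sign. Its width rests on an error pooled over the 4 groups, HFHS among them. The SD of Col1a1 was 1.53 in HFHS, 0.3 under curcumin and 0.52 under calcitriol. These intervals are not adjusted for the number of genes, and a difference that misses the threshold does not show that the treatments acted alike.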

How the data were processed

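Whole-liver RNA of 12 libraries was measured by sequencing. The authors deposited 1 log2 value per Ensembl gene identifier and library. Per the submitters' processing notes, STAR 2.4.0d, DESeq2 1.8.1 and the build GRCm38 were used, with no role named, and the transformation is not given in the sources used here. The values run from -3.63 to 20.7, and 23411 of 45792 identifiers are at exactly 0 in all libraries and were dropped. An exact 0 never occurs for a gene that has values elsewhere, a pattern of regularized values, which would understate the changes of low genes. Read counts were not used here, the depth is unknown, and counting intervals cannot be given.

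Genes reaching log2 of 10 (3.32) in at least 3 libraries were tested (12637). One linear model with 4 group means over 12 libraries was fitted in limma 3.58.1 (R 4.3.3) with trended, robust empirical Bayes moderation. P-values are two-sided, were adjusted by the Benjamini-Hochberg method across the 12637 genes, and passed under 0.05. Standard errors are the model's. The script was tested on simulated data. Promoters were read from RefSeq.

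The 50 genes, the pathway lists and the marker lists were chosen with earlier results of these data known. Genes given with every library's value are 31 set by name plus every other one that passed in any of the 6 comparisons. Change, SE and adjusted p are given for HFHS against CNT and, elsewhere, for genes that passed, that lay apart or that lead their role. At most 4 called genes of each pathway list are named. The value of 1 gene of these lists is not reported here.

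Replicate numbers come from the titles. They were taken to pair libraries where the deviations from the group means correlated above 0.1 in all 3 pairs: curcumin with HFHS (0.16, 0.32 and 0.16) and calcitriol with CNT (0.20, 0.25 and 0.37). Alternatives were other filters, plain moderation, library weights, quantile normalization, the replicate block, 2 groups alone and leaving out libraries.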

Additional observations from a re-analysis of the deposited data

How the results depend on the processing

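Counts of genes passing, of 49 tested, moved as follows. For HFHS against CNT (20) the count was 12 with no filter on low values, 48 (46 higher, 2 lower) with library weights, 32 with the replicate block, 0 with 2 groups alone, 0 without HFHS replicates 1 and 3 together, and 0 to 46 when leaving out 1 library. For curcumin against HFHS (0) it was 42 with library weights, 1 with the replicate block and 0 to 41 when leaving out 1 library. For calcitriol against HFHS (3) it was 1 with no filter, 41 with library weights, 0 with 2 groups alone, 0 without HFHS replicates 1 and 3, and 0 to 41 when leaving out 1 library. For curcumin against CNT (1) it was 9 with library weights, 5 with 2 groups alone, 7 without HFHS replicates 1 and 3, and 0 to 5 when leaving out 1 library. For calcitriol against CNT (0) it was 8 with library weights, 2 with the replicate block, 3 without HFHS replicates 1 and 3, and 0 to 3 when leaving out 1 library. For curcumin against calcitriol (0) library weights gave 1. The cause of these moves was not tested, beyond fewer libraries or groups in the fit. Library weights gave HFHS replicate 2 a weight of 0.24 and CNT replicate 3 a weight of 0.306. All genes moved with the weights too. For HFHS against CNT 37.9% of all genes passed in either direction with weights, against 11.9% without them. Against HFHS the shares of all genes with weights were 27.1% for curcumin and 21.6% for calcitriol. Against CNT they were 21% for curcumin and 24.7% for calcitriol. With the replicate block 14.7% of all genes passed for HFHS against CNT, and 5.18% passed with no filter. The other settings (a mean of at least 4, plain moderation, quantile normalization) kept each count within 1.5 times. Without HFHS replicates 1 and 3, the HFHS change turned negative for Col5a2 (-0.035), Lum (-0.111), Bgn (-0.004), Pdgfra (-0.044), Pdgfrb (-0.123) and Tgfb1 (-0.070). It also turned negative for Lamc1 (-0.03), Mfap4 (-0.06), Timp2 (-0.03) and Timp3 (-0.15). The curcumin change of Col1a1 against HFHS became 0.192 in that fit. When leaving out 1 library, the calcitriol change of Col1a1 against CNT ran from -0.197 (without calcitriol replicate 1) to 0.298. Same-numbered libraries in the other 4 comparisons did not all deviate together; over all 18 pairs the correlation ran from -0.38 to 0.37, and 9 of 12 libraries correlated best with their own number. There the block gave 4 genes for calcitriol against HFHS, and for curcumin against CNT it gave 1, Col14a1 instead of Postn. Depth is unknown, and the spread between 3 libraries sets what can be told apart.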
